A study of Homo sapiens with 8 samples.

Results

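Cohesin and condensin are ring-shaped complexes that shape chromosomes in mitosis. The genes described here are the 5 cohesin subunits SMC1A, SMC3, RAD21, STAG1 and STAG2 and the 5 condensin subunits SMC2, SMC4, NCAPD2, NCAPG and NCAPH. They were found by their symbols in the authors' expression table, where all 10 are among 17788 listed genes, and all 10 also passed the filter on low values, as did 17217 genes in all. RNA came from the human colorectal cancer line HCT116, an established line, in 4 groups of 2 libraries: STAU1-knockout (STAU1-KO) spindle preparations, STAU1-KO input, wild-type (WT) spindle preparations and WT input. The targeted gene, STAU1, codes for the double-stranded RNA binding protein Staufen1, and the study asked whether its loss changes which mRNAs are found on the mitotic spindle. In all 4 groups, cells were arrested at the end of G2 by the CDK1 inhibitor RO-3306 (16 h), then released into taxol (100 µM, as the labels give it) for 15 min, and mitotic cells were shaken off. Input is whole-cell RNA, and a spindle preparation is the taxol-stabilised microtubule pellet spun through glycerol, from which ribosomal RNA was depleted before stranded sequencing, as it was from input. The knockout was made by CRISPR, and all STAU1-KO libraries carry the code of 1 clone, so that genotype and clone cannot be told apart.

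In cohesin, SMC1A and SMC3 are the long coiled-coil ATPases, RAD21 is the kleisin that closes the ring and is cut by separase at anaphase, and STAG1 and STAG2 are alternative subunits that bind RAD21. Cohesin holds sister chromatids together from replication until anaphase. In condensin I, SMC2 and SMC4 are the ATPases, NCAPH is the kleisin, and NCAPD2 and NCAPG are the HEAT-repeat subunits; the complex compacts chromosomes after the nuclear envelope breaks down. SMC2 and SMC4 also serve condensin II, which has its own kleisin and HEAT-repeat subunits.

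The promoters of the genes that differ between genotypes in the spindle comparison are shown first, with NCAPD2 as the HEAT-repeat partner of NCAPG that did not pass that test. They are from RefSeq on GRCh38.p14, 250 bases before to 50 bases after the annotated start, and where a gene has several starts the window furthest upstream is shown. Capitals mark TTTGAA (the core of the cell cycle homology region, CHR) and CCAAT, either of which may stand on the other strand as TTCAAA or ATTGG.
NCAPG (chr4:17810729-17811028, strand +): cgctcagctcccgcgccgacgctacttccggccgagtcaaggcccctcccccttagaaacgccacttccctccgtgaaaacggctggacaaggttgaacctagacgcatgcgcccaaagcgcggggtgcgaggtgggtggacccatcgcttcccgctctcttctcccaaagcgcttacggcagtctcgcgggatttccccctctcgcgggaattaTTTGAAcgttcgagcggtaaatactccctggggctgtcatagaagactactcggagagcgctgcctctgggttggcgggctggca
SMC4 (chr3:160399400-160399699, strand +): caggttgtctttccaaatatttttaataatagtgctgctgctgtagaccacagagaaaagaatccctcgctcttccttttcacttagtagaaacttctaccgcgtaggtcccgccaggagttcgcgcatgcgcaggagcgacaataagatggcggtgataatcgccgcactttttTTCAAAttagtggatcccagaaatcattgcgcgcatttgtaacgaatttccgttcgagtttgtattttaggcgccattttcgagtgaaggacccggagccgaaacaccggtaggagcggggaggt
STAG2 (chrX:123960310-123960609, strand +): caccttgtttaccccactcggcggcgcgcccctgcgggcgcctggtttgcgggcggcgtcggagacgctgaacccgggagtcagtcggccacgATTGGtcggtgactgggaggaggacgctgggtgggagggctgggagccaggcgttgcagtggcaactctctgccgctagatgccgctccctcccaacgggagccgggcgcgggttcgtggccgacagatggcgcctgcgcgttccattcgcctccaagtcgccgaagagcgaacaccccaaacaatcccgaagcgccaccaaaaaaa
NCAPD2 (chr12:6493852-6494151, strand +): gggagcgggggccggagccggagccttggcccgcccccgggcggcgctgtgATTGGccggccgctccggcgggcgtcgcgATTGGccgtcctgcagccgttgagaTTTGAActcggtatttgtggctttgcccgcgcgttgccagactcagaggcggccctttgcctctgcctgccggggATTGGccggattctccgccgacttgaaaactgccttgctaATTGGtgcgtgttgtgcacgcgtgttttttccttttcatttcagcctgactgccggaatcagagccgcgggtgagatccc
Of the 10 genes, 9 were matched in the promoter table (RAD21 was not). Searched on both strands, TTTGAA was in 5 of these 9 windows and in 15.2% of all 35116 promoter windows, CCAAT was in 4 of 9 and 34.6%, and TTCCCGCC, an E2F-type sequence, was in 1 of 9 and 3.16%. Both TTTGAA and CCAAT were in 1 of 9, NCAPD2, and in 5.90% of all windows. No overlap between the motifs' letters was removed. NCAPG and SMC4 each held 1 TTTGAA and no CCAAT, STAG2 held 1 CCAAT and no TTTGAA, and NCAPD2 held 1 TTTGAA and 4 CCAAT. A match describes letters in these windows, and for SMC2, SMC4 and STAG2 a window at another annotated start differed in these matches. Counts out of 9 take 1 window per gene, the furthest upstream, while the 35116 windows include every annotated start. The shares are thus not on the same basis.

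Reads over the listed genes, recovered from the deposited values, ranged from 5.21 M to 14.6 M per library, and the 10 genes had between 186 reads (SMC2) and 6559 reads (RAD21) in a library. Values are FPKM as the authors scaled them, which is reads per kilobase of gene, relative to a size factor of each library. Levels of different genes therefore depend on the gene length used, which does not follow the listed longest transcript in equal measure for all members. In WT spindles the size factor did not follow the read total. Replicate 2 had more reads than replicate 1 (6.60 M and 5.21 M) and a smaller factor (0.484 and 0.788). The knockout was visible in the targeted gene: STAU1 had 4.59 and 4.88 FPKM in STAU1-KO input, against 31.9 and 28.5 FPKM in WT input (log2 change -2.44 ± 0.16 SE, limma adjusted p = 0.00889). In spindles it had 9.83 and 9.83 FPKM in STAU1-KO cells, against 11.5 and 16.2 FPKM in WT cells (log2 change -0.44, adjusted p = 0.113), so the label was matched by input and not separated by the test in spindles. The WT spindle libraries stood apart from each other: the 28S ribosomal RNA gene RNA28S5 took 13.6% of reads in replicate 1 and 46.1% in replicate 2. It took 11.0% and 10.8% in the STAU1-KO spindle libraries, and 1.29% to 1.64% in the 4 input libraries. Of 8 epithelial markers all were measured, while among leukocyte, endothelial and erythroid markers none passed the filter, and COL1A1 alone did among 6 fibroblast markers.

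In whole-cell RNA the mean levels of the subunits ran from 10.8 FPKM (SMC2) to 68.9 FPKM (RAD21) in STAU1-KO input, and from 10.3 to 64.1 FPKM in WT input for the same genes. RAD21 had 67.4 and 70.5 FPKM in STAU1-KO input, against 68.5 and 59.6 FPKM in WT input. NCAPD2 had 63.9 and 63.3 FPKM in STAU1-KO input, against 60.2 and 58.0 FPKM in WT input. These levels overlap in WT input, so that RAD21 and NCAPD2 are not ordered there. SMC2, by contrast, had 10.7 and 10.8 FPKM in STAU1-KO input, against 11.0 and 9.59 FPKM in WT input. The order RAD21, NCAPD2, NCAPG, SMC3, SMC4, NCAPH, SMC1A, STAG2, STAG1, SMC2 was the same by mean in both input groups, with every neighbour separate in STAU1-KO input and every neighbour but RAD21 and NCAPD2 separate in WT input. The ATPase pairs were thus unequal in FPKM: SMC3 averaged 32.7 ± 0.59 FPKM in STAU1-KO input and SMC1A 17.2 ± 0.78 FPKM, and SMC4 averaged 26.8 ± 1.05 FPKM against 10.8 ± 0.066 FPKM for SMC2 (SD, n = 2 each). In WT spindles no neighbours in the order were separate, because the replicates differed. Separate refers to the replicate libraries, and does not cover error from the gene length used.

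**Figure D1:**
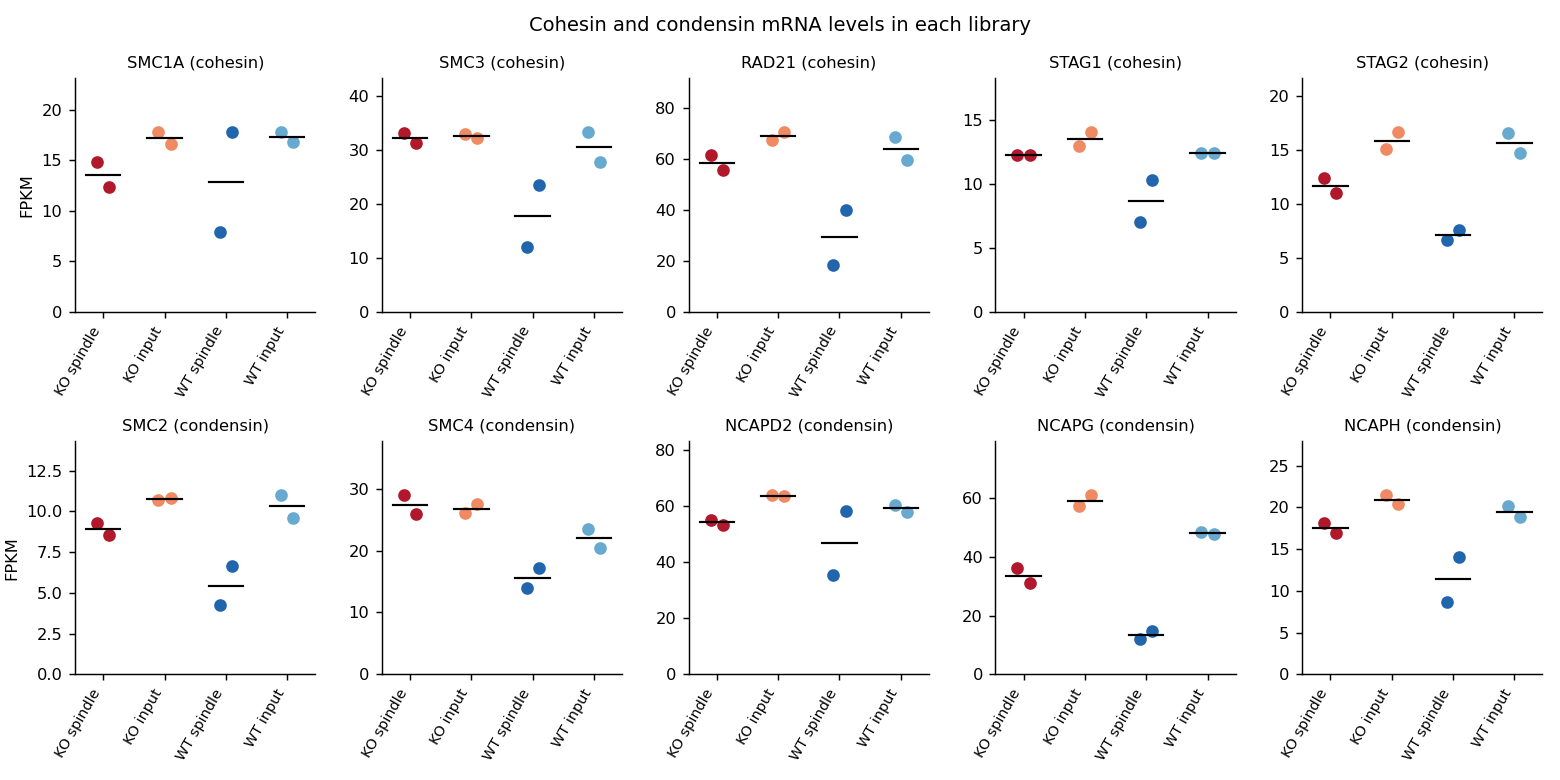
FPKM of each subunit (vertical axis, from 0) in the 8 libraries, with STAU1-KO spindle, STAU1-KO input, WT spindle and WT input from left to right; points are libraries and lines are means of 2. WT spindle libraries lie lowest for SMC3, RAD21, STAG1, STAG2, SMC2, SMC4, NCAPG and NCAPH, and for SMC1A and NCAPD2 WT spindle replicate 2 reaches the level of the input libraries.

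In WT cells, subunit messages were lower in spindle preparations than in input for 8 of the 10 genes (SMC3, RAD21, STAG1, STAG2, SMC2, SMC4, NCAPG and NCAPH), and none was higher. Over all genes tested 60.3% were called in this comparison and 32.7% were called lower. The median log2 change of the 10 genes was -0.79, against 0.00 over all genes tested and -0.28 over 11671 coding genes tested. Both WT spindle libraries lay below both WT input libraries for 8 of 10 genes, as they did for 40.0% of all genes. Other genes moved with them: 4 of 8 epithelial markers (median log2 change -1.21) and 4 of 6 markers of mitotic cells (median -1.48) were called lower in WT spindles, and the nuclear RNAs MALAT1 and NEAT1 were called higher (2.34 and 4.86). Epithelial markers summed to 339 and 928 FPKM in WT spindles, against 1497 and 1555 FPKM in WT input, and MALAT1 with NEAT1 to 2843 and 1548 FPKM in WT spindles, against 338 and 372 FPKM in WT input. In STAU1-KO cells, 2 of 8 and 2 of 6 of these markers were called lower (medians -0.76 and -0.70) and both nuclear RNAs higher (2.20 and 4.68), with epithelial sums of 662 and 675 FPKM in spindles, against 1155 and 1105 FPKM in input, and nuclear sums of 2218 and 2222 FPKM, against 416 and 435 FPKM. Their part in the subunits' values was not tested. A lower level in bulk RNA does not tell fewer spindles that carry a message from less message per spindle.

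NCAPG, a HEAT-repeat subunit of condensin I, showed the largest change of the 10. It had 12.0 and 14.8 FPKM in WT spindles, against 48.5 and 47.6 FPKM in WT input. Both spindle libraries were low and close together, and the mean spindle level was 27.9% of input (log2 change -1.77 ± 0.14 SE, adjusted p = 0.000181, limma), at percentile 8.62 among coding genes. This call was kept under all 20 alternative settings, including all 8 that left out 1 library. STAG2, the subunit that binds RAD21 in place of STAG1, had 6.65 and 7.55 FPKM in WT spindles, against 16.5 and 14.7 FPKM in WT input (log2 change -1.04 ± 0.12 SE, adjusted p = 0.000637). The groups were well apart. STAG2, SMC4 and NCAPG had the closest WT spindle replicates of the 10 genes, with replicate 2 over replicate 1 at 1.14, 1.23 and 1.24.

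RAD21, the cohesin kleisin, had 18.3 and 40.0 FPKM in WT spindles, against 68.5 and 59.6 FPKM in WT input (log2 change -1.21 ± 0.33 SE, adjusted p = 0.0203). The spindle replicates differed 2.19-fold, more than most members, yet both stayed under both input libraries. SMC3, one cohesin ATPase, had 11.9 and 23.5 FPKM in WT spindles, against 33.3 and 27.8 FPKM in WT input (log2 change -0.82, adjusted p = 0.0457). STAG1 had 7.03 and 10.3 FPKM in WT spindles, against 12.5 and 12.4 FPKM in WT input (log2 change -0.50, adjusted p = 0.0370). In both genes replicate 1 was the lower spindle library, and these calls were lost without any 1 of the STAU1-KO libraries or WT input libraries (adjusted p = 0.0777 to 0.187 for SMC3 and 0.0666 to 0.124 for STAG1). The other cohesin ATPase, SMC1A, had 7.95 and 17.8 FPKM in WT spindles, against 17.8 and 16.8 FPKM in WT input. Its spindle replicates spread over more than the input range, and it did not pass the test (log2 change -0.50 ± 0.32 SE, adjusted p = 0.226).

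Among the condensin ATPases, SMC2 had 4.24 and 6.66 FPKM in WT spindles, against 11.0 and 9.59 FPKM in WT input (log2 change -0.83, adjusted p = 0.00878). SMC4 had 13.9 and 17.2 FPKM in WT spindles, against 23.6 and 20.4 FPKM in WT input (log2 change -0.48, adjusted p = 0.0250). Neither gene's groups overlapped; without WT input replicate 1 the calls were lost, with adjusted p = 0.0563 for SMC2 and 0.137 for SMC4, and SMC4's was also lost without either STAU1-KO input library (adjusted p = 0.0536 and 0.0535). NCAPH, the condensin I kleisin, had 8.71 and 14.0 FPKM in WT spindles, against 20.2 and 18.8 FPKM in WT input (log2 change -0.76, adjusted p = 0.0178). All spindle values of NCAPH lay under the input values. Its call, like that of RAD21, was lost without either WT input library (adjusted p = 0.0865 and 0.0616 for NCAPH, 0.0980 and 0.0631 for RAD21). NCAPD2 had 35.2 and 58.0 FPKM in WT spindles, against 60.2 and 58.0 FPKM in WT input, and did not pass the test (log2 change -0.38 ± 0.23 SE, adjusted p = 0.191). Without WT spindle replicate 2, SMC1A and NCAPD2 passed as well (log2 change -1.03, adjusted p = 0.000963, and -0.73, adjusted p = 0.000212), on a lone WT spindle library assumed to vary like the other groups.

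In STAU1-KO cells the same comparison called 2 of the 10 genes lower, STAG2 and NCAPG, and none higher, where 49.2% of all genes tested were called and 27.1% were called lower. The median log2 change of the 10 genes was -0.24, against -0.02 over all genes tested and -0.20 over coding genes. NCAPG had 36.2 and 30.9 FPKM in STAU1-KO spindles, against 57.1 and 61.0 FPKM in STAU1-KO input (log2 change -0.80 ± 0.14 SE, adjusted p = 0.00499). Its spindle level was 56.8% of input, and the call was kept when any 1 library was left out. STAG2 had 12.3 and 11.0 FPKM in STAU1-KO spindles, against 15.0 and 16.6 FPKM in STAU1-KO input (log2 change -0.41 ± 0.12 SE, adjusted p = 0.0296). That call was lost without any 1 of the 4 STAU1-KO libraries, with adjusted p = 0.0648 to 0.168.

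The other 8 genes did not pass the test in STAU1-KO cells, with log2 changes from -0.33 (SMC1A) to 0.03 (SMC4), although both spindle libraries lay below both input libraries for 8 of the 10 genes, against 44.0% of all genes. SMC4 had 29.0 and 25.9 FPKM in STAU1-KO spindles, against 26.1 and 27.5 FPKM in STAU1-KO input. SMC3 had 33.1 and 31.3 FPKM in STAU1-KO spindles, against 33.1 and 32.2 FPKM in STAU1-KO input. For these ATPases the groups overlapped. Leaving out either WT spindle library kept the log2 changes in STAU1-KO cells as they were. More of the 10 genes, and more of all genes, were then called lower. The authors' deposited tables called 8 of the 10 genes lower in WT spindles and 2 lower in STAU1-KO spindles, at an adjusted p under 0.05. Those tables come from the same libraries, so they are no separate evidence. The share of all genes called in them is not given here, so these counts cannot be weighed against it.

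The direction of these changes rested on how libraries are scaled. With FPKM summed over coding genes set equal in every library, the median of all genes tested moved to 0.49 in STAU1-KO cells and 0.73 in WT cells, and the share of calls that were higher went to 79.1% in STAU1-KO cells and 80.5% in WT cells, against 44.9% and 45.8% under the authors' scaling. On that scale 9 of 10 subunits were positive in STAU1-KO cells. Of the 10, 6 were called higher and 0 lower there, against 6798 and 1796 of all 17217 genes tested. In WT cells 7 of 10 were positive, with 3 called higher and 1, NCAPG, called lower (log2 change -0.82). Of all genes, 8921 were called higher and 2161 lower in WT cells. The STAU1-KO calls of NCAPG and STAG2 were lost (-0.11 and 0.25). With equal upper quartiles the medians of all genes were 0.18 and 0.30 in STAU1-KO and WT cells, and the shares of calls that were higher were 60.2% and 62.1%. Of the 10 genes 1 and 3 were called lower in STAU1-KO and WT cells, against 3379 and 4033 of all genes. Relative to the median of all genes, all 10 subunits lay lower in WT cells under each of the 3 scalings, and NCAPG lay at -1.77, -1.67 and -1.54 relative to it with the authors' scaling, equal upper quartiles and equal coding sums. In STAU1-KO cells 8, 8 and 7 of 10 lay below that median under the same scalings. As a share of all coding FPKM, the 10 genes together made up 0.214% and 0.196% in STAU1-KO spindles, 0.151% and 0.156% in STAU1-KO input, 0.130% and 0.154% in WT spindles, and 0.132% and 0.128% in WT input. By that share, STAU1-KO spindles were the highest libraries and WT spindle replicate 1 lay within the WT input range.

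**Figure D2:**
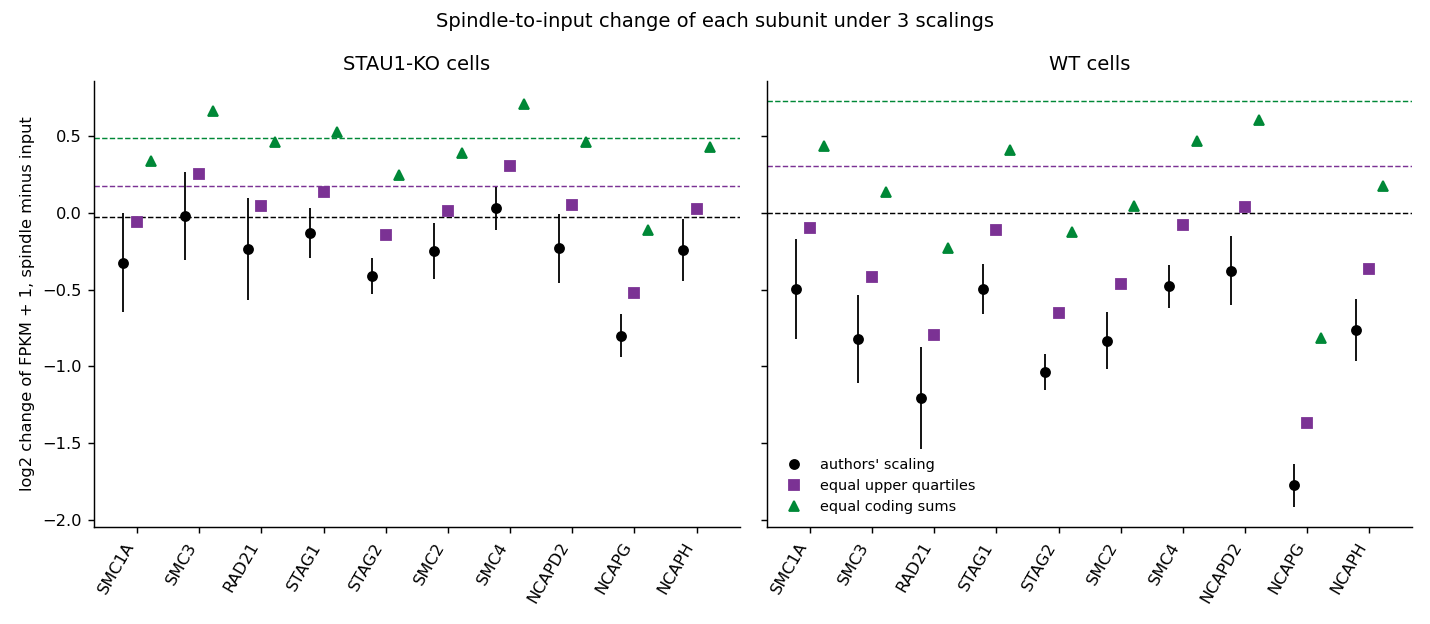
Log2 change of FPKM + 1, spindle minus input, for each subunit in STAU1-KO cells (left) and WT cells (right), under the authors' scaling (circles, bars 1 SE), equal upper quartiles (squares) and equal coding sums (triangles); dashed lines are the median of all genes tested in the same colour. All 10 subunits lie under the dashed line of their scaling in WT cells. There NCAPG, RAD21 and STAG2 are negative under all 3 scalings and the other 7 change sign; in STAU1-KO cells NCAPG stays negative and SMC4 positive.

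Set directly against each other, STAU1-KO spindles held more message than WT spindles for NCAPG, SMC4 and STAG2, the 3 of 10 genes called in this comparison, where 16.1% of all genes tested were called and 10.6% were called higher. All 10 log2 changes were positive, with a median of 0.64 against 0.04 over all genes tested and 0.09 over coding genes. Both STAU1-KO spindle libraries lay above both WT spindle libraries for 8 of 10 genes, against 31.8% of all genes. At an unadjusted p under 0.05 there were 8 of 10, against 5947 of all 17217 genes tested. On recovered reads voom called 6 of 10 higher, against 2127 of all genes. NCAPG had 36.2 and 30.9 FPKM in STAU1-KO spindles, against 12.0 and 14.8 FPKM in WT spindles, 2.51-fold higher by the means (log2 change 1.27 ± 0.14 SE, adjusted p = 0.00741). SMC4 had 29.0 and 25.9 FPKM in STAU1-KO spindles, against 13.9 and 17.2 FPKM in WT spindles (log2 change 0.79 ± 0.14 SE, adjusted p = 0.0191). STAG2 had 12.3 and 11.0 FPKM in STAU1-KO spindles, against 6.65 and 7.55 FPKM in WT spindles (log2 change 0.65 ± 0.12 SE, adjusted p = 0.0208). In all 3 genes the genotypes were apart in every library. Equal coding sums left 9 of 10 values positive (SMC1A -0.01) with 6 genes called higher, SMC3, RAD21, SMC2, SMC4, NCAPG and NCAPH. STAG2 was not called on that scale (limma adjusted p = 0.0545). Of all 17217 genes tested, 1122 were called higher with equal coding sums. The share of all calls that were higher was 38.2% there, against 65.8% under the authors' scaling and 49.0% with equal upper quartiles.

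The rest of the subunits had positive values that missed the threshold. RAD21 had 61.5 and 55.5 FPKM in STAU1-KO spindles, against 18.3 and 40.0 FPKM in WT spindles (log2 change 1.08 ± 0.33 SE, adjusted p = 0.0741). SMC3 had 33.1 and 31.3 FPKM in STAU1-KO spindles, against 11.9 and 23.5 FPKM in WT spindles (log2 change 0.90 ± 0.29 SE, adjusted p = 0.0802). In both, the genotypes did not overlap, and WT spindle replicate 1 was the lowest library. SMC2, NCAPH and STAG1 had log2 changes of 0.64, 0.61 and 0.48, with adjusted p = 0.0615, 0.0867 and 0.0947. SMC1A and NCAPD2 overlapped between genotypes, with log2 changes of 0.17 and 0.25 and adjusted p = 0.750 and 0.469.

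The calls of NCAPG, SMC4 and STAG2 were lost without single STAU1-KO libraries, while their log2 changes stayed positive. With any 1 library left out these ran from 1.12 to 1.41 (NCAPG), 0.64 to 0.93 (SMC4) and 0.57 to 0.73 (STAG2). For SMC4 and STAG2 they did not change without a STAU1-KO input library, which is outside this comparison. Without STAU1-KO spindle replicate 1 or replicate 2 none of the 10 genes was called (for NCAPG, log2 change 1.16 with adjusted p = 0.0790 and 1.38 with adjusted p = 0.0640), and without either STAU1-KO input library only NCAPG was called. Without WT spindle replicate 1, the log2 changes of SMC1A and NCAPD2 were negative (-0.37 and -0.10) and those of the other 8 genes positive. Without WT spindle replicate 2 all 10 were positive, from 0.60 (NCAPD2) to 1.62 (RAD21). Each of these fits rests on a lone WT spindle library. Fitted on the spindle groups alone, no gene of the 10 was called, and none of the 17217 genes tested was. The markers of mitotic cells (CCNB1, CDC20, PLK1, AURKA, BUB1 and TPX2) moved with these libraries: summed, they came to 421 and 398 FPKM in STAU1-KO spindles, against 142 and 400 FPKM in WT spindles, and to 754 and 745 FPKM in STAU1-KO input, against 763 and 702 FPKM in WT input. None of these 6 markers was called between the spindle groups. Of the 8 epithelial markers 1 was called lower and 0 higher there, and of MALAT1 and NEAT1 neither was called. Their part in the result was not tested.

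**Figure D3:**
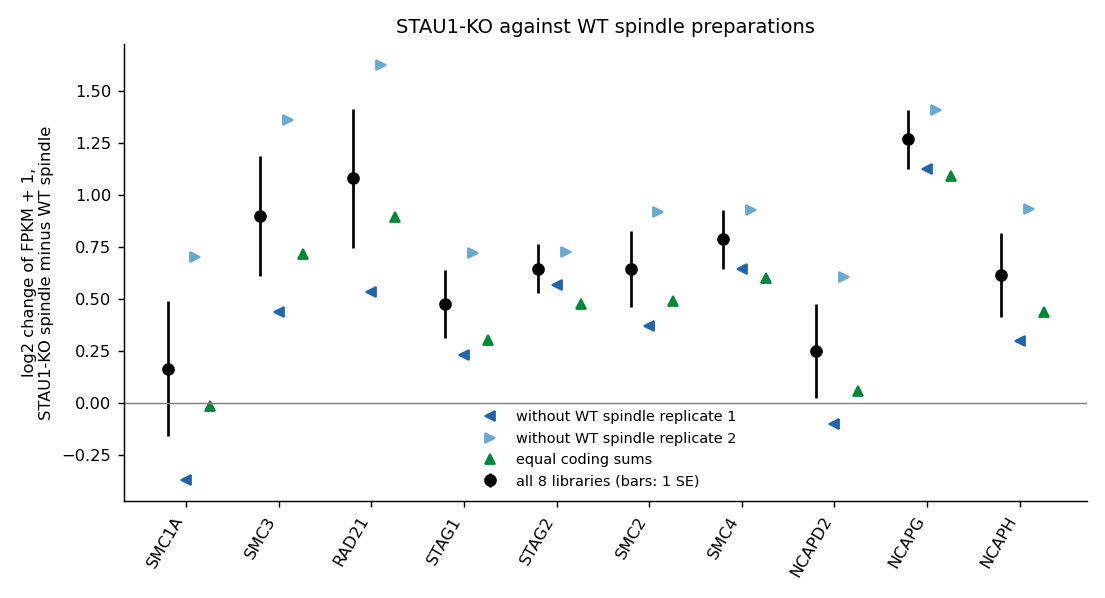
Log2 change of FPKM + 1, STAU1-KO spindle minus WT spindle, for each subunit with all 8 libraries (circles, bars 1 SE), without WT spindle replicate 1 or 2 (triangles pointing left or right) and with equal coding sums (triangles pointing up). NCAPG stays between 1.09 and 1.41 in these settings, while SMC1A crosses 0.

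In whole-cell RNA the genotypes were not separated: 0 of the 10 genes was called by limma, where 0.192% of all genes tested were called. None of the 10 had an unadjusted p under 0.05, against 1522 of all 17217 genes, and voom called none of the 10. Log2 changes ran from -0.005 for SMC1A to 0.29 for NCAPG. NCAPG had 57.1 and 61.0 FPKM in STAU1-KO input, against 48.5 and 47.6 FPKM in WT input (log2 change 0.29 ± 0.14 SE, adjusted p = 0.643). SMC4 had 26.1 and 27.5 FPKM in STAU1-KO input, against 23.6 and 20.4 FPKM in WT input (log2 change 0.28 ± 0.14 SE, adjusted p = 0.662). For these genes, and for 5 of 10 in all, both STAU1-KO input libraries lay above both WT input libraries, against 26.4% of all genes. Of the few genes called over the whole table, the share that were higher was 42.4%, with 31.6% under equal upper quartiles and 12.5% under equal coding sums.

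Whether the spindle-to-input change itself differed between genotypes was tested as an interaction, which subtracts the WT change from the STAU1-KO change. None of the 10 genes was called by limma or by voom, and limma called 0.0929% of all genes tested. An unadjusted limma p under 0.05 was found for 3 of the 10, against 3485 of all 17217 genes. All 10 values were positive, with a median of 0.55 against 0.02 over all genes tested; with equal coding sums SMC1A and NCAPD2 turned negative (-0.10 and -0.14), and the share of all calls that were higher was 49.3% there, against 81.2% under the authors' scaling. The smallest adjusted p was that of NCAPG (0.97 ± 0.20 SE on the log2 scale, adjusted p = 0.0825), followed by STAG2 (0.63 ± 0.17 SE, adjusted p = 0.123) and SMC4 (0.51 ± 0.20 SE, adjusted p = 0.226). RAD21 had as large a value as NCAPG, 0.97, with a larger error, 0.47 SE. Without WT spindle replicate 2 the 10 values ran from 0.50 (NCAPD2) to 1.52 (RAD21). Without WT spindle replicate 1 they ran from -0.37 (SMC1A) to 0.83 (NCAPG), and NCAPD2 had -0.20. Both fits rest on a lone WT spindle library.

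Ratios of partner subunits within a library do not depend on scaling between libraries, and 6 such pairs were set against input in the 4 spindle libraries. NCAPG per NCAPD2, the 2 HEAT-repeat subunits of condensin I, was 0.658 and 0.582 in STAU1-KO spindles, against 0.894 and 0.964 in STAU1-KO input. In WT spindles it was 0.340 and 0.256, against 0.806 and 0.821 in WT input. Spindle libraries were lower in every case, and WT spindles were lower than STAU1-KO spindles (log2 difference, spindle minus input, -1.02, -0.58 in STAU1-KO cells and -1.46 in WT cells). STAG2 per STAG1, the alternative RAD21 partners, was 1.01 and 0.897 in STAU1-KO spindles, against 1.16 and 1.18 in STAU1-KO input. The same ratio was 0.945 and 0.735 in WT spindles, against 1.33 and 1.18 in WT input. So STAG2 had the higher FPKM of the pair in every input library and in 1 of the 4 spindle libraries (log2 difference -0.45).

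RAD21 per SMC3 ranged from 1.53 to 1.86 in spindles and from 2.04 to 2.19 in input (log2 difference -0.30). SMC4 per SMC2 was the pair that was higher in spindles, from 2.58 to 3.28 against 2.13 to 2.55 in input (log2 difference 0.38). For these 4 pairs spindle and input libraries did not overlap, and each reached the smallest p that 4 against 4 libraries allow (two-sided exact permutation test, p = 0.0286, adjusted over 6 pairs p = 0.0429). All 4 calls rest on that tie: with FPKM + 1 in the ratio SMC4 per SMC2 overlapped and the adjusted p became 0.0571 for RAD21 per SMC3, STAG2 per STAG1 and NCAPG per NCAPD2 and 0.0857 for SMC4 per SMC2. The permutation took all 8 libraries as exchangeable and did not hold genotype fixed. Permuted within genotype and replicate number, no pair could reach an exact p under 0.125. NCAPH per NCAPD2 was 0.330 and 0.318 in STAU1-KO spindles, against 0.336 and 0.321 in STAU1-KO input, and 0.247 and 0.242 in WT spindles, against 0.335 and 0.325 in WT input. It was lower in both WT spindle libraries and overlapped in STAU1-KO cells (log2 difference -0.23, exact permutation p = 0.114, adjusted p = 0.137). SMC1A per SMC3, the ATPase pair of cohesin, was 0.449 and 0.395 in STAU1-KO spindles, against 0.538 and 0.517 in STAU1-KO input. In WT spindles it was 0.666 and 0.758, against 0.534 and 0.604 in WT input. Over both genotypes the difference was near 0 (exact permutation p = 1.00), with STAU1-KO spindles below their input and WT spindles above theirs.

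**Figure D4:**
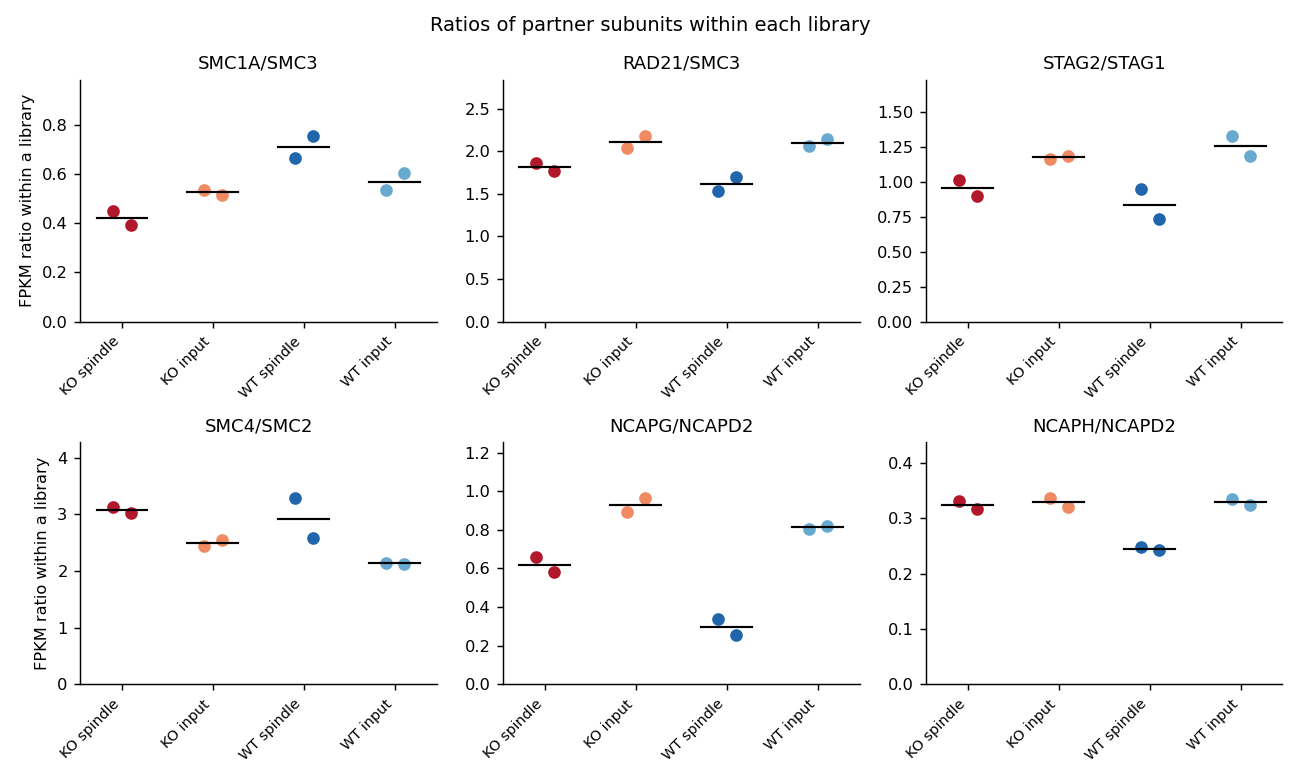
Ratio of FPKM of partner subunits within each library (vertical axis, from 0) for the 6 pairs, with STAU1-KO spindle, STAU1-KO input, WT spindle and WT input from left to right; lines are geometric means of 2 libraries. NCAPG per NCAPD2 is between 0.256 and 0.658 in spindles and between 0.806 and 0.964 in input.

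Other genes of the same pathways were called in both directions. Of 10 genes that load, release or acetylate cohesin, 3 were called higher and 4 lower in STAU1-KO spindles against input, and 4 were called higher and 4 lower in WT cells. Of all genes tested, 22.1% were called higher and 27.1% lower in STAU1-KO spindles, and 27.6% higher and 32.7% lower in WT spindles. CDCA5, which encodes sororin, a protector of cohesion, averaged 5.22 FPKM in STAU1-KO spindles, against 24.3 FPKM in STAU1-KO input (log2 change -2.02, adjusted p = 0.000235). It averaged 8.13 FPKM in WT spindles, against 24.3 FPKM in WT input (log2 change -1.47, adjusted p = 0.000141). ESCO2, a cohesin acetyltransferase, was lower in spindles in STAU1-KO cells (log2 change -0.55) and in WT cells (-1.22). PDS5B, which binds cohesin and regulates its release, was higher in STAU1-KO spindles (1.25) and WT spindles (0.88), as was the helicase DDX11 (0.68 and 0.90). Between genotypes in spindles, ESCO2 (0.78, adjusted p = 0.00932), PDS5B (0.61, adjusted p = 0.0129) and NIPBL (0.92, adjusted p = 0.0153), the cohesin loader, were higher in STAU1-KO cells and CDCA5 was lower (-0.55, adjusted p = 0.0224); NIPBL is named because it completes the 4 calls. Of all genes tested, 10.6% were called higher and 5.52% lower there.

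Of 7 genes of cohesin cleavage and protection, 4 were called lower in STAU1-KO spindles and 6 lower in WT spindles, and none higher, against 27.1% and 32.7% of all genes called lower. PTTG1, which encodes securin, the inhibitor of separase, had log2 changes of -1.68 in STAU1-KO cells and -2.59 in WT cells (adjusted p = 0.00445 and 0.000556). SGOL2, a shugoshin that protects cohesin in meiosis, had -0.31 in STAU1-KO cells (adjusted p = 0.244) and -1.34 in WT cells (adjusted p = 0.00183), and was the 1 gene of this list called higher in STAU1-KO spindles against WT spindles (1.37, adjusted p = 0.0122). PPP2R5A and PPP2R5C, regulatory subunits of the phosphatase PP2A, were lower in both genotypes, by log2 changes of -0.78 and -0.80 in STAU1-KO cells and -0.95 and -0.78 in WT cells. The meiotic subunits with values were near the filter: REC8 averaged 3.35 FPKM in STAU1-KO spindles, against 0.83 FPKM in STAU1-KO input, and 3.25 FPKM in WT spindles, against 0.55 FPKM in WT input. REC8 was called higher in spindles in STAU1-KO cells (1.24, adjusted p = 0.00133) and WT cells (1.46, adjusted p = 0.000461), and STAG3 in WT cells (0.53, adjusted p = 0.0316; in STAU1-KO cells 0.38, adjusted p = 0.102).

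Of 4 genes of condensin II and its inhibitor, 1 was called higher and 1 lower in STAU1-KO spindles against input. In WT cells 1 was called higher and 0 lower. The shares of all genes are those given for the cohesin regulators. In WT cells voom called 1 lower, against 5731 of all 17217 genes tested. An unadjusted limma p under 0.05 was found there for 2, against 11180 of all genes. NCAPD3 had a log2 change of 0.25 in STAU1-KO cells (adjusted p = 0.0767) and -0.11 in WT cells (adjusted p = 0.363). NCAPG2, the condensin II counterpart of NCAPG, averaged 16.6 ± 1.45 FPKM in STAU1-KO spindles, against 16.6 ± 0.18 FPKM in STAU1-KO input, and 13.2 ± 0.0722 FPKM in WT spindles, against 15.6 ± 1.10 FPKM in WT input (SD, n = 2 each). NCAPG2 passed the test in neither genotype (adjusted p = 0.967 in STAU1-KO cells and 0.100 in WT cells). NCAPH2, the condensin II kleisin, was lower in STAU1-KO spindles (-0.55, adjusted p = 0.0425) and had -0.46 in WT cells (adjusted p = 0.0644), and MCPH1, an inhibitor of condensin II, was higher in both (0.80 and 0.45, adjusted p = 0.00076 and 0.00435). The difference between the 2 condensins was not tested. In STAU1-KO spindles against WT spindles NCAPD3 alone of these 4 was called (0.44, adjusted p = 0.0332).

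In the SMC5/6 complex, a relative of cohesin and condensin in DNA repair, 2 of 7 genes were called higher and 1 lower in STAU1-KO spindles, and 1 higher and 3 lower in WT spindles. For these limma counts the shares of all genes are those given for the cohesin regulators. With voom, 2 were called higher and 3 lower in STAU1-KO spindles, and 1 higher and 5 lower in WT spindles. Over all 17217 genes tested, voom called 4572 higher and 5135 lower in STAU1-KO spindles. In WT spindles voom called 5035 of all genes higher and 5731 lower. SMC5 was higher in STAU1-KO spindles (0.43, adjusted p = 0.0168) and had 0.06 in WT cells (adjusted p = 0.617), and SMC6 was called in neither (-0.21 and -0.50, adjusted p = 0.383 and 0.0552). Among the non-SMC elements, NSMCE4A was lower in both genotypes (-0.71 and -1.07), EID3 was higher in both (1.55 and 1.35), and NSMCE1 and NSMCE2 were called lower in WT cells (-1.53 and -0.50) and not in STAU1-KO cells (-0.90 and 0.27), with no interaction called (adjusted p = 0.467 and 0.121). NDNL2 was not called (-1.02 and -0.91). SMC5 and NSMCE2 were higher in STAU1-KO spindles than in WT spindles (0.57 and 0.58, adjusted p = 0.0216 and 0.0441). Of 7 other genes of mitotic chromosome structure, TOP2A, TOP2B and CTCF were lower in WT spindles (-0.55, -0.56 and -0.56) and in STAU1-KO spindles 0 were called lower and 1 higher, SMCHD1 (0.58), named after its value was seen. Shares of all genes, for these counts and between the spindle groups, are those given for the cohesin regulators. KIF4A, a chromosome-bound kinesin, had -0.43 in STAU1-KO cells and -0.75 in WT cells and was not called. TOP2A, which encodes topoisomerase II alpha, averaged 52.8 ± 3.05 FPKM in STAU1-KO spindles, against 20.7 ± 0.35 FPKM in WT spindles (SD, n = 2 each; log2 change 1.31, adjusted p = 0.0054), and was called higher there with SMCHD1 (0.67, adjusted p = 0.0119). TOP2A in input was 47.2 ± 0.24 FPKM in STAU1-KO cells, against 30.9 ± 0.48 FPKM in WT cells (0.60, adjusted p = 0.161).

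**Figure D5:**
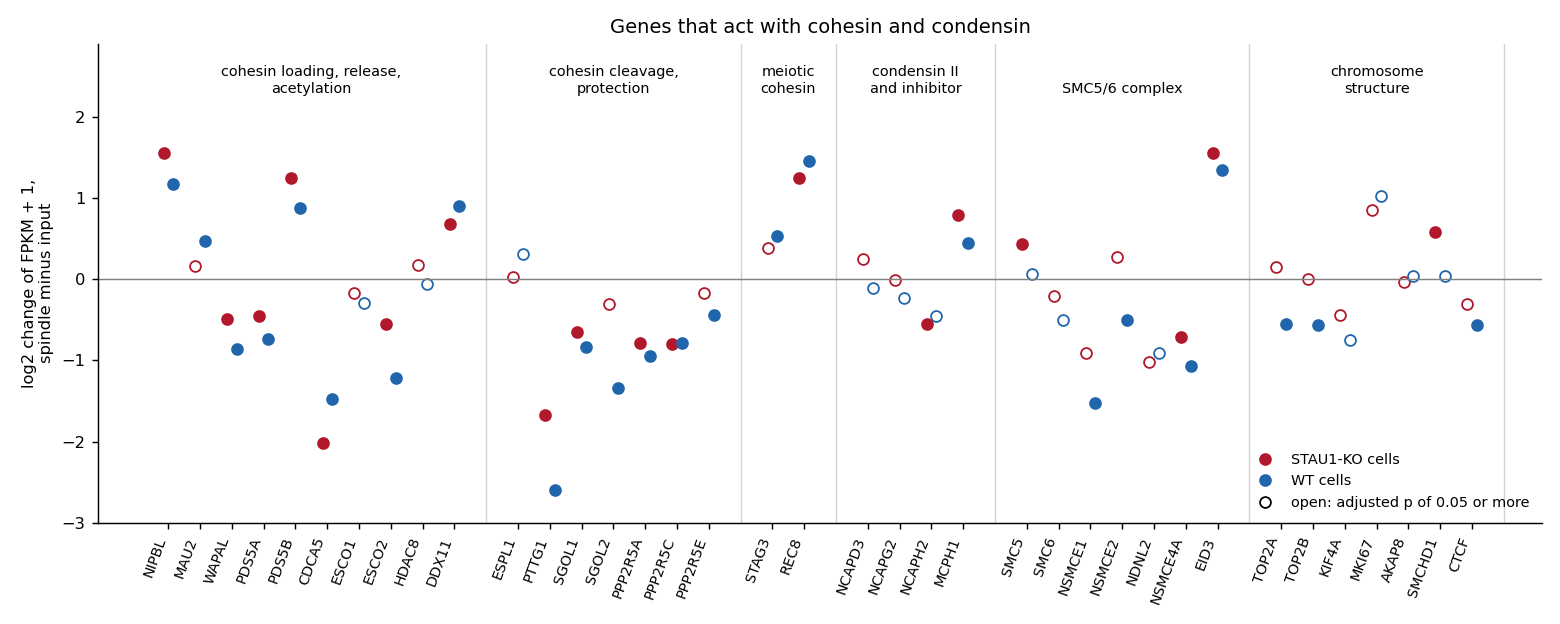
Log2 change of FPKM + 1, spindle minus input, of genes that act with cohesin and condensin, in STAU1-KO cells (red, left of each pair) and WT cells (blue); filled points passed an adjusted p under 0.05. Changes in both directions occur among cohesin regulators, from CDCA5 (-2.02 in STAU1-KO cells) to NIPBL (1.56).

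Length and GC content played no part in the choice of the 10 genes. Their longest coding sequences had a median of 3678 nucleotides, against 1404 over tested coding genes, and all 10 lay above that median. Their GC content, as listed by the authors per gene, had a median of 37.9%, against 45.2%; 7 of the 10 lay below the coding median, NCAPH at it, and SMC1A (45.5%) and NCAPD2 (46.3%) above it. Of 15 rank correlations computed across the 10 genes, which share the same 8 libraries, that of the WT spindle-to-input change with coding length had Spearman's rho 0.70, and 0.50 over 11671 coding genes, while in STAU1-KO cells these were 0.33 and 0.53. The change of STAU1-KO against WT spindles had rho -0.81 with GC content, and -0.56 over coding genes. With the level in WT input, rho of the spindle-to-input change was 0.18 in STAU1-KO cells, against -0.57 over coding genes, and -0.08 in WT cells, against -0.64. The other 10 ranged from -0.60 to 0.68 across the 10 genes and from -0.12 to 0.36 over coding genes. These correlations across genes are descriptions, since genes are not independent replicates. The WT input libraries enter both the level in WT input and the WT change, so part of a negative rho between them is built in. Over the 8 libraries, the log2 profiles of the subunits correlated with each other from r = 0.53 (SMC1A and SMC4) to 0.993 (SMC2 and NCAPH), and cohesin kleisin RAD21 was as close to NCAPH (r = 0.992) as to its partner SMC3 (0.984). The coding genes whose profile over the 8 libraries was most like the cohesin mean were DNTTIP2, MFAP1, RFC1, IMMT and RRAGA (r = 0.998, 0.996, 0.993, 0.993 and 0.993). For the condensin mean they were FAM92A1, DLGAP5, CANX, SEPTIN7 and ANXA5 (r = 0.998, 0.997, 0.996, 0.996 and 0.995).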

How the data were processed

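The 10 genes and the further gene lists were chosen with earlier results of these data known. Per the submitters' processing notes, FastQC, TopHat, featureCounts and DESeq2 were used with GRCh37, and no versions are given. The authors deposited FPKM per library, scaled by size factors, with group TPM and GC percent, and comparison tables with a base mean (a normalised signal), log2 fold change, Wald score and p-value. Whole reads were recovered (100% of values within 0.01 of a whole number) and used for depth and voom. The design foresaw a count model only if counts were deposited.

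limma 3.58.1 (R 4.3.3) was fitted to log2(FPKM + 1) in all 8 libraries, with 4 group means and a trend, over 17217 genes with FPKM of at least 1 in at least 2 libraries. Fold changes on this scale understate those of low genes. Tests were two-sided, Benjamini-Hochberg adjusted over all genes tested, and called at an adjusted p under 0.05. Partner ratios were tested by exact permutation over libraries. All 10 subunits, STAU1, every measured condensin II, SMC5/6 and meiotic cohesin gene, the 4 genes with the smallest WT spindle p of each other list, and the 5 nearest profiles were named. The series calls replicates biological, and nothing says how cultures were separated. On simulated data, by a criterion chosen after stricter ones had failed, the errors of the fitted changes averaged near 0 on this scale. Most of the larger changes put in were called and none of the smaller. Few genes were changed there, while 49.2% and 60.3% of genes were called between spindle and input in STAU1-KO and WT cells. Those simulated calls therefore do not measure power here. With 2 libraries a group, a missed threshold does not show that a gene is unchanged. Alternatives changed the scaling, pseudocount, filter, model, weights and libraries.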

Additional observations from a re-analysis of the deposited data

Results flagged for a closer look

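The ratio of SMC1A to SMC3 moved in opposite directions in the genotypes. Its log2 value in spindles minus input was -0.32 in STAU1-KO cells and 0.32 in WT cells, with both spindle libraries below both input libraries in STAU1-KO cells and above them in WT cells. The STAU1-KO value minus the WT value was -0.65. This difference was not tested, and SMC1A also differed 2.24-fold between the WT spindle replicates.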

How the results depend on the processing

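Over 10 genes, 5 comparisons and up to 20 alternatives, 866 of 990 results kept their side of the threshold and their direction where called, 60 lost a call, 52 gained one and 12 reversed; 29 more changed sign with neither value called and are counted as kept. NCAPG in WT spindles kept its call in every alternative run. All 12 reversals came with equal coding sums, where log2 changes became, in STAU1-KO cells, 0.66 (SMC3), 0.53 (STAG1), 0.25 (STAG2), 0.39 (SMC2), 0.46 (NCAPD2) and 0.43 (NCAPH), and in WT cells 0.13 (SMC3), 0.41 (STAG1), 0.045 (SMC2), 0.47 (SMC4), 0.60 (NCAPD2) and 0.17 (NCAPH).

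Subunits called in STAU1-KO spindles against input, 2 as reported, were 6 with equal coding sums, 1 with equal upper quartiles, 5 with library weights, 6 with the 2 groups alone, 1 with the replicate block, and 1 to 6 when 1 library was left out. In WT cells, 8 as reported, they were 4 with equal coding sums, 3 with equal upper quartiles, 2 with the 2 groups alone, and 2 to 10 when 1 library was left out. In STAU1-KO against WT spindles, 3 as reported, they were 6 with equal coding sums, 1 with library weights, 0 with the 2 groups alone, 7 among coding genes only, 6 with voom, and 0 to 10 when 1 library was left out. The interaction called 0, and 0 to 10 when 1 library was left out.

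Of all genes, STAU1-KO against WT spindles called 2778 as reported, 274 with library weights, 0 with the 2 groups alone, 1828 with the replicate block, and 0 to 6597 when 1 library was left out. In input the 33 genes became 8 with equal coding sums, 19 with equal upper quartiles, 589 with library weights, 0 with the 2 groups alone, 76 among coding genes only, 10 with the replicate block, 134 with voom, and 2 to 421 when 1 library was left out. The interaction's 16 genes became 103 with the filter at 4 libraries, 294 with equal coding sums, 0 with equal upper quartiles, 0 with library weights, 10 with no filter, 504 among coding genes only, 174 with a pseudocount of 0.1, 103 with 0.5, 0 with the replicate block, 396 with voom, and 0 to 3939 when 1 library was left out. STAU1-KO spindles against input called 4926 to 11185 genes when 1 library was left out, against 8473. The same comparison called 8594 with equal coding sums, 8496 with equal upper quartiles, 11999 with library weights, 11312 with the 2 groups alone and 7917 with the replicate block. The 6 subunits called there with equal coding sums were higher. Those called with library weights and with the 2 groups alone were lower. In WT cells all genes called were 11082 with equal coding sums and 10640 with equal upper quartiles, against 10384. The cause of these moves was not tested.

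Ratios as log2 differences with FPKM + 1 were -0.30 (RAD21/SMC3), -0.41 (STAG2/STAG1), 0.32 (SMC4/SMC2) and -0.98 (NCAPG/NCAPD2). With the replicate block the same values, -0.30, -0.45, 0.38 and -1.02, could not reach a p under 0.125. In STAU1-KO libraries alone and in WT libraries alone, values with no test were -0.32 and 0.32 (SMC1A/SMC3), -0.22 and -0.38 (RAD21/SMC3), -0.58 and -1.46 (NCAPG/NCAPD2), and -0.020 and -0.43 (NCAPH/NCAPD2). When 1 library was left out they ranged from -0.16 to 0.16 (SMC1A/SMC3), -0.34 to -0.24 (RAD21/SMC3), -0.51 to -0.35 (STAG2/STAG1), 0.33 to 0.45 (SMC4/SMC2), -1.23 to -0.78 (NCAPG/NCAPD2) and -0.30 to -0.15 (NCAPH/NCAPD2).

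Across genes, the difference of replicate 1 minus replicate 2 correlated between groups with r from -0.05 to 0.02. This does not tell whether libraries of the same number came from the same culture, so pairing stays unknown. Counting error at the lowest read number of a subunit was 2.49% to 7.33%, below the replicate spread in WT spindles.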
